A study of Mus musculus with 38 samples.

Results

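The enzymes described here conjugate or hydrolyse drugs, hormones and other lipophilic compounds in the liver. They were taken as every probe whose single gene symbol begins with Ugt1 to Ugt3 (UDP-glucuronosyltransferases), Sult (sulfotransferases), Ces (carboxylesterases), Fmo (flavin-containing monooxygenases), Aldh1 (aldehyde dehydrogenases of the first family) or Nat8 (N-acetyltransferases of the Nat8 group). The rule found 84 probes of 63 genes among 36607 probes, of which 26926 carry a single symbol and stand for 17501 genes. The Ugt family gave 25 probes of 17 genes, Sult 15 probes of 12 genes, Ces 17 probes of 15 genes, Fmo 7 probes of 5 genes, Aldh1 8 probes of 7 genes and Nat8 12 probes of 7 genes. Another 13 probes listed with several Ugt symbols were left out. No probe lacked a value on any array, so no filter on low values was set and all 84 probes were tested.

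RNA from 20 male mouse livers was measured on 38 two-colour arrays, each liver against the same pool of RNA, made from wild-type livers of 5 male B6129 mice aged 12 weeks. The mice labelled knockout carried Alb-Cre +/- and Met Fl/Fl on strain 129SV/C57BL6, and the control mice carried Alb-Cre +/- without floxed alleles on strain B6129. Albumin-driven Cre acts in hepatocytes, and liver cells in which it is not active keep Met, the receptor of hepatocyte growth factor. All 20 mice had received N-nitrosodiethylamine (DEN), a liver carcinogen, in 1 dose of 10 µg per g of body weight at 14 days of age. There were 5 mice each of knockout at 3 months, control at 3 months, knockout at 5 months and control at 5 months. The labels give ages of 12 weeks and 20 weeks for these times, which leaves the time since the dose unsettled. The comparison of genotypes asks what the loss of hepatocyte Met changes in the livers of mice exposed to the carcinogen. Knockouts and controls also differ in strain label and in carrying floxed alleles, so strain and Met loss cannot be told apart here.

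Every value below is a log2 ratio of liver over the reference, 1 per mouse, and every difference is knockout minus control on that scale with its standard error (SE, 5 mice per group). Tests used limma over all 20 mice with Benjamini-Hochberg adjustment over all 36607 probes, and a probe was called at an adjusted p under 0.05. Cy5 was taken as the numerator of the deposited ratio. No source states this, and with Cy3 as the numerator every direction given here would turn round. Both dye orientations were hybridised for 18 mice, while 5-month knockout 2 has an array with liver in Cy3 only and 5-month knockout 3 an array with liver in Cy5 only. Of the 5-month mice, knockouts 3 to 5 lay in a run of array numbers (array series) that held no control. Genotype and array series are therefore partly confounded at 5 months. At 3 months both arrays of a mouse, as deposited, correlated at r = 0.344 to 0.513 across probes, where ratios that follow the dyes would mirror each other. At 5 months they correlated at r = -0.698 to 0.18. After the mean of each group and orientation was removed, r was negative in 7 of 10 mice at 3 months and in 6 of 8 at 5 months. For control 4 of 5 months, the array with its liver in Cy5 correlated at -0.609 to -0.476 with the liver-in-Cy5 arrays of 3 months, so its direction is not settled and results are also given with it turned or left out. Met itself averaged -0.39 ± 0.38 in knockouts and -0.81 ± 0.18 in controls at 3 months, and -0.78 ± 0.45 in knockouts and -0.73 ± 0.30 in controls at 5 months (SD, n = 5). Neither difference was called (0.42 at 3 months, adjusted p = 0.656; -0.05 at 5 months, adjusted p = 0.979). Where the Met probe lies relative to the floxed part is not given in the sources used here, so it does not check the labels, and knockout stands for mice labelled so.

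Conjugation makes lipophilic compounds more soluble in water so that they leave with bile or urine. Ugt enzymes transfer a sugar from a nucleotide sugar, Sult enzymes transfer sulfate, and Ces enzymes cleave esters and amides, including those of stored lipids. Fmo enzymes oxidise nitrogen and sulfur atoms, Aldh1 enzymes oxidise retinal and other aldehydes or handle folate, and human NAT8 acetylates cysteine conjugates in the last step that forms mercapturates. These families are abundant in hepatocytes, and several are under the control of nuclear receptors.

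A single member was called, Nat8f5, which rose in knockout livers at 5 months. At 3 months 0 of 84 member probes passed the adjusted threshold, where 0.0355% of all probes did, and at 5 months 1 of 84 did, where 0.145% of all probes did. At an unadjusted p under 0.05 the 3-month count was 11 of 84 (13.1%, against 7.96% of all probes). Of these, 5 were higher in knockouts (all probes 2.14%) and 6 were lower (all probes 5.82%). At 5 months the count at an unadjusted p under 0.05 was 17 of 84 (20.2%, against 10.5% of all probes), with 15 higher (17.9%, against 7.07%) and 2 lower (2.38%, against 3.41%). The values of knockouts and controls did not overlap for 3 member probes at 3 months (3.57%, against 1.31% of all probes) and for 4 at 5 months (4.76%, against 3.92%).

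The median difference over the 63 genes was -0.03 at 3 months, with 31 genes higher and 32 lower in knockouts, and the median over all genes was also -0.03. At 5 months it was 0.16, with 42 genes higher and 21 lower (66.7% higher), beside a median of 0.02 and 54.0% higher over all genes. The per-mouse median over members ran from 0.18 to 0.37 in 5-month knockouts and from -0.02 to 0.23 in 5-month controls. It ran from 0.03 to 0.20 in 3-month knockouts and from 0.18 to 0.30 in 3-month controls. With the doubtful array of 5-month control 4 turned, the 5-month median difference was 0.11. The groups overlap at both times. The 5-month controls hold the lowest values of the 4 groups, and among them controls 1 and 4 are the lowest and control 3 is the highest. In bulk liver, fewer hepatocytes and less RNA per hepatocyte cannot be told apart.

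**Figure D1:**
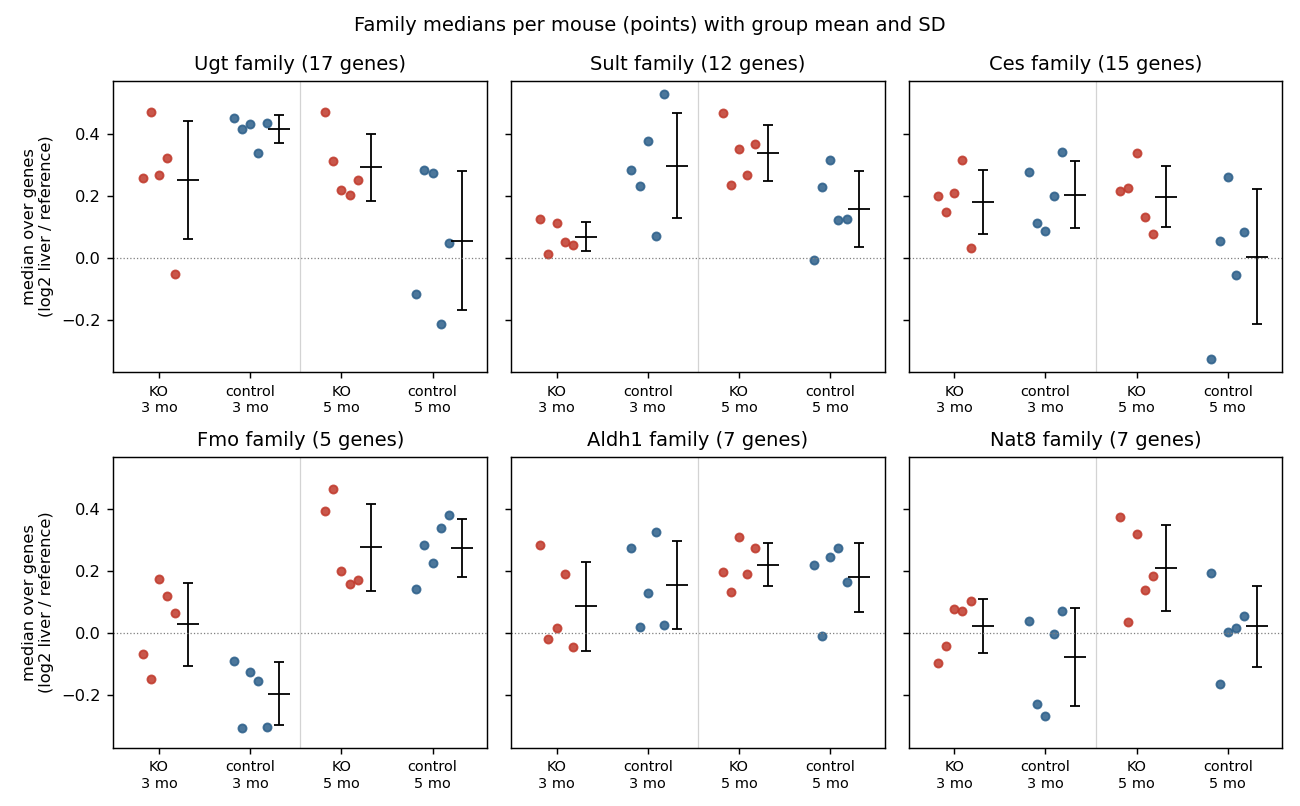
Median log2 ratio of liver over reference over the genes of each family (y axis), 1 point per mouse, for the 4 groups (x axis), with the group mean and SD as a black bar. In the Ugt, Sult and Ces panels the 5-month controls reach the lowest values of any group, and in every panel the genotypes overlap at 5 months.

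The Nat8 family had the called member. Nat8f5, a camello-like N-acetyltransferase gene of the cluster on chromosome 6, had log2 ratios of 1.32, 1.12, 1.19, 0.73 and 0.98 in 5-month knockouts, against 0.29, -0.30, -0.68, 0.18 and 0.50 in 5-month controls. Every knockout lay above every control. The difference was 1.07 ± 0.21 (2.10-fold, SE, adjusted p = 0.0478). At 3 months its values were 1.84, 1.21, 1.49, 1.46 and 0.92 in knockouts, against 0.91, 0.44, 0.84, 0.44 and 0.81 in controls. Here too the groups did not overlap, though the lowest knockout and the highest control were 0.01 apart, and the difference of 0.69 ± 0.21 was not called (adjusted p = 0.303). Met also lies on chromosome 6, and the part of sequence linked to Met in these differences was not tested.

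The call at 5 months lies at the edge of the threshold. It was kept in 4 of 27 alternatives of the analysis and lost in the others, mostly with a difference of similar size. Left out in turn, each of the 10 mice of 5 months except control 5 took the call away (difference 0.90 to 1.20, adjusted p = 0.0472 to 0.123). Within the 7 mice of the only array series that held both genotypes at 5 months, the difference was 1.22 (adjusted p = 0.22). With the doubtful array of control 4 turned it was 1.15 (adjusted p = 0.0624), and without that array 1.15 (adjusted p = 0.0279). The arrays with liver in Cy5 alone gave 0.69 and those with liver in Cy3 alone 1.41, and with no array turned it was -0.34.

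The start of Nat8f5 and that of its neighbour Nat8 are shown because Nat8f5 was the called member and Nat8 lies beside it. Both windows hold GTTAAT, part of the site of the hepatocyte factor HNF1, while the other Nat8 start (chr6:85836808-85837107) and the start of Ugt2b1 hold none. The windows run across the gene start for 300 bases in the direction of the gene, from RefSeq on GRCm38.p6, both on the minus strand, at chr6:85820923-85821222 for Nat8f5 and chr6:85832230-85832529 for the Nat8 start that holds the motif. Capitals mark GTTAAT.
Nat8f5: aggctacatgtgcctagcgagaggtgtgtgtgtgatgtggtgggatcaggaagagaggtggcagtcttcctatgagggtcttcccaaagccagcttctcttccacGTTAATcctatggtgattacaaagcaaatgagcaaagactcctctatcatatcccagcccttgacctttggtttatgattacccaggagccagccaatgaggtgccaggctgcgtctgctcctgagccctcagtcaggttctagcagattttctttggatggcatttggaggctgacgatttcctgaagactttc
Nat8: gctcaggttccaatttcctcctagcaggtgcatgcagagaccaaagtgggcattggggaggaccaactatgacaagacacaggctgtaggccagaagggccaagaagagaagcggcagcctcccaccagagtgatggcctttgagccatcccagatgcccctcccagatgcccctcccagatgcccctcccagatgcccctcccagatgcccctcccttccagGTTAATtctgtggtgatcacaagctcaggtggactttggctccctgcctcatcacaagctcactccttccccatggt
GTTAAT, searched on both strands, was in 13 of 60 member windows (21.7%, 53 of 63 genes matched) and in 7.1% of 32851 windows of the same length over all genes. Those 13 windows belong to 6 Ugt genes, 2 Sult genes, 2 Ces genes, 2 Nat8 genes and 1 Aldh1 gene. CAAAGTCCA, an HNF4 site, was in 2 member windows (3.3%, against 0.5% of all) and TTCNNNGAA, a STAT5 site, in 5 (8.3%, against 8.3%). GCGTG, the core of the site of the aryl hydrocarbon receptor, was in 8 (13.3%, against 32.4%). A match describes letters in a window and is not a binding site. A missing match covers these exact letters only and does not show that a site is absent.

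Nat8, the mouse namesake of the mercapturate-forming enzyme, had log2 ratios of 1.47, 1.22, 1.22, 0.65 and 0.96 in 5-month knockouts, against 0.16, 0.05, 0.00, 0.27 and 0.93 in 5-month controls. Control 5 lay among the knockouts and the other 4 controls lay below all of them. The difference was 0.82 ± 0.23 and was not called (adjusted p = 0.204). Nat8 is named here after its values were seen. Nat8f1 had a difference of 0.43 at 5 months (adjusted p = 0.439) and -0.26 at 3 months. The other cluster genes Nat8f2, Nat8f3 and Nat8f4 had gene differences of -0.02, -0.07 and -0.03 at 5 months, and of 0.33, 0.31 and 0.15 at 3 months. Over the 7 genes the median difference was 0.31 at 3 months and 0.08 at 5 months.

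**Figure D2:**
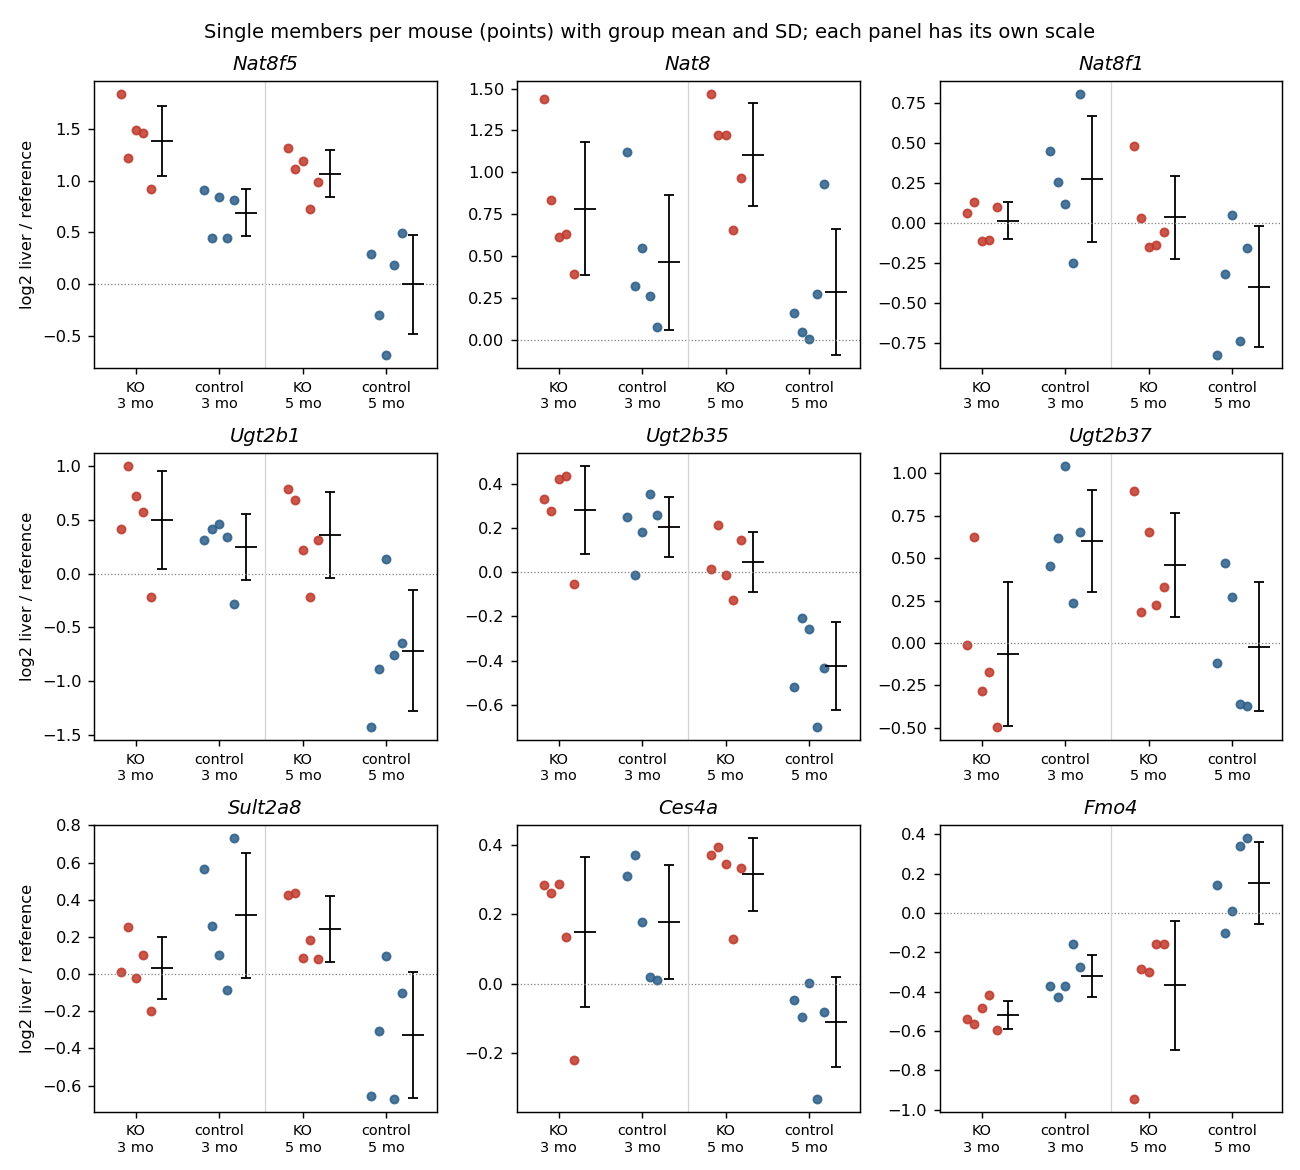
Log2 ratio of liver over reference (y axis, its own scale in each panel) for 9 members, 1 point per mouse in the 4 groups (x axis), with the group mean and SD as a black bar. Nat8f5, Ugt2b35 and Ces4a are higher in every 5-month knockout than in any 5-month control, and Fmo4 is lower in every 5-month knockout.

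The Ugt2 genes, a cluster on chromosome 5 whose enzymes glucuronidate steroids and many drugs, had no called probe. Over 8 genes the median difference was -0.31 at 3 months and 0.43 at 5 months. Of the 8 genes, 5 were lower in 3-month and higher in 5-month knockouts (62.5%, against 28.2% of all genes). Over all member genes the share was 18 of 63 (28.6%), near that of all genes. Ugt2b1 and Ugt2b35 were higher at both times and Ugt2a1 was lower at both. Ugt2b37 had the smallest p of the Ugt family at 3 months. Its log2 ratios were -0.01, 0.63, -0.28, -0.17 and -0.49 in 3-month knockouts, against 0.45, 0.62, 1.04, 0.24 and 0.65 in 3-month controls. All knockouts but number 2 lay below every control. The level depended strongly on the dye. With liver in Cy5 the 3-month means were -1.26 in knockouts and -0.73 in controls, and with liver in Cy3 they were 1.13 and 1.93. The difference was -0.67 ± 0.22 (adjusted p = 0.38), or -0.40 within the array series that held 3-month knockouts 1 and 2 and controls 1 to 3. At 5 months it was 0.48 ± 0.22 (adjusted p = 0.455), and the difference between both times was 1.14, which was not called (adjusted p = 0.449).

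Ugt2b1 had the largest difference of any member gene at 5 months. Its log2 ratios were 0.79, 0.68, 0.22, -0.22 and 0.31 in 5-month knockouts, against -1.43, -0.88, 0.13, -0.75 and -0.65 in 5-month controls. Knockout 4 lay below control 3, and the other knockouts lay above every control. The difference was 1.07 ± 0.27 (2.11-fold, adjusted p = 0.133), and it passed only without control 3 (1.29, adjusted p = 0.0324) and under quantile normalisation. Ugt2b35 had values of 0.01, 0.22, -0.01, -0.13 and 0.14 in 5-month knockouts, against -0.52, -0.21, -0.26, -0.70 and -0.43 in 5-month controls. The groups did not overlap, and the difference of 0.47 ± 0.12 was not called (adjusted p = 0.176). It was 0.21 with liver-in-Cy5 arrays alone. Ugt2b1 and Ugt2b35 are named here after their values were seen. Ugt2a3 differed by 0.51 at 5 months (adjusted p = 0.316). Ugt2a1 was lower in every 3-month knockout than in any 3-month control (-0.53 ± 0.23, adjusted p = 0.56) and differed by -0.03 at 5 months. Its 3-month difference was -1.03 with liver-in-Cy5 arrays alone and -0.03 with liver-in-Cy3 arrays alone.

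The Ugt1a genes on chromosome 1, which join alternative first exons to shared later exons, had small median differences of 0.03 at 3 months and 0.04 at 5 months over 7 genes. Ugt1a1, the bilirubin glucuronosyltransferase, had values of 0.14, -0.06, -0.19, 0.09 and -0.02 in 5-month knockouts, against -0.88, -0.34, -0.05, -0.49 and -0.10 in 5-month controls. Knockouts lay higher on the whole but the groups overlapped, and the difference of 0.36 ± 0.15 was not called (adjusted p = 0.403). The probes of a gene did not give the same picture. Probe 2 of Ugt1a7c had the smallest p of the family at 5 months, with values of -0.39, -0.58, -0.28, -0.07 and -0.48 in knockouts, against 0.21, -0.23, 0.43, 0.74 and 0.30 in controls. Only control 2 lay among the knockouts, and the difference was -0.65 ± 0.16 (adjusted p = 0.133). Probe 1 of the same gene differed by 0.16 ± 0.28.

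The ratios to the reference varied as much between probes of a Ugt1a gene. Means over the 5 knockouts at 3 months were 1.09, 2.05 and 0.57 for the 3 probes of Ugt1a9, with 1.19, 1.89 and 0.53 in the controls of that time. They were -0.29 and 1.62 in knockouts for the probes of Ugt1a10, with -0.18 and 1.67 in controls. Probes in shared exons would read several of these genes, and where these probes lie is not given. Ugt1a6a and Ugt1a9 had probes that disagreed in the sign of the difference at 3 months, and Ugt1a7c and Ugt1a9 at 5 months.

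**Figure D3:**
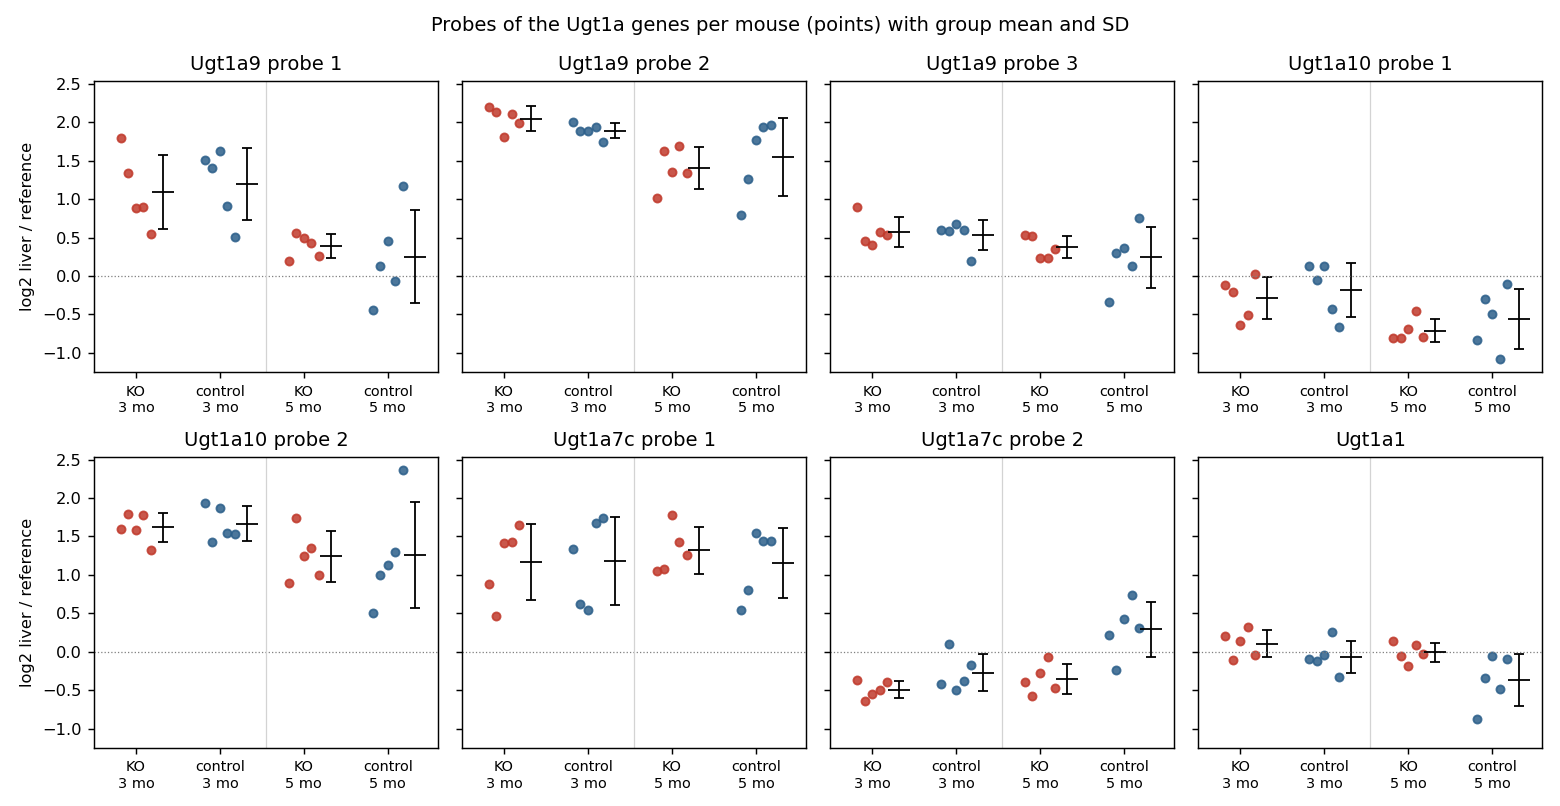
Log2 ratio of liver over reference (y axis) for 8 probes of 4 Ugt1a genes, 1 point per mouse in the 4 groups (x axis), with the group mean and SD as a black bar. Probes of the same gene sit at different distances from the reference, and the genotypes overlap in every panel.

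The Ugt3a genes on chromosome 15 stood above the reference in all mice once arrays with liver in Cy3 were turned. In humans UGT3A1 transfers N-acetylglucosamine in place of glucuronic acid. Ugt3a1 had group means of 1.36 in knockouts and 0.96 in controls at 3 months, and 1.17 in knockouts and 1.07 in controls at 5 months. Its difference was 0.40 ± 0.19 at 3 months (adjusted p = 0.608) and 0.10 ± 0.19 at 5 months. Ugt3a2, Ugt1a9, Nat8 and Aldh1a1 were the other genes above the reference in all 20 mice, so 5 of 63 member genes (7.94%) were, beside 1.48% of all genes. These shares rest on the arrays used. With liver-in-Cy5 arrays alone 7 of 63 were above it in all 19 mice measured so (11.1%, against 0.966%), with liver-in-Cy3 arrays alone 10 of 63 (15.9%, against 19.7%), and with no array turned 3 of 63, Ces1g, Ces3a and Nat8f2, in all 20 mice (4.76%, against 1.01%). The reference is a single pool with no spread of its own, so no test was made against 0.

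The Sult genes had a median difference of -0.23 at 3 months, with 2 of 12 genes higher in knockouts, and of 0.22 at 5 months, with 8 of 12 higher. Sult2a8, a bile acid sulfotransferase of mouse liver, had the smallest p at 5 months. Its log2 ratios were 0.42, 0.44, 0.09, 0.18 and 0.08 in 5-month knockouts, against -0.66, -0.30, 0.10, -0.67 and -0.10 in 5-month controls. Control 3 lay above the lowest pair of knockouts and the other 4 controls lay below all of them. The difference was 0.57 ± 0.17 (adjusted p = 0.248), beside -0.28 ± 0.17 at 3 months (adjusted p = 0.74). The difference between both times, 0.85, was not called (adjusted p = 0.452). Sult1d1, which sulfates catecholamines, differed by 0.55 at 5 months (adjusted p = 0.386) and by -0.20 at 3 months. Its 5-month values were 1.279 and 1.295 in knockouts 1 and 2, which shared the array series of the controls. They were 0.469, 0.468 and 0.442 in knockouts 3 to 5, and -0.201 to 0.91 in controls. Sult1b1, which sulfates phenols and thyroid hormone, differed by 0.48 (probe 1, adjusted p = 0.444) and 0.09 (probe 2) at 5 months.

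Sult1e1, the estrogen sulfotransferase, had values of 1.16, 1.22, 0.77, 0.60 and 0.74 in 5-month knockouts. The 5-month controls had 1.46, 1.78, 1.45, 1.84 and 0.56, and all controls but number 5 lay above every knockout. Knockouts 2 and 3 have 1 array each, so their places rest on a dye correction pooled over both times. The gap between dyes differed between times. Control means with liver in Cy5 and in Cy3 were -0.41 and 1.77 at 3 months, and 1.28 and 1.56 at 5 months. The difference was -0.52 ± 0.30 at 5 months (p = 0.1, not called after adjustment) and -0.41 ± 0.30 at 3 months (adjusted p = 0.805). At 5 months it was -1.05 with liver-in-Cy5 arrays alone and -0.04 with liver-in-Cy3 arrays alone. Sult3a1 varied widely, from -1.56 to 0.51 in 3-month knockouts and from -1.72 to 1.85 in 3-month controls, and its difference of -1.05 ± 0.56 was not called (adjusted p = 0.683). Its level also depended strongly on the dye. The 3-month means were -2.99 in knockouts and -2.29 in controls with liver in Cy5, and 2.03 and 3.43 with liver in Cy3. Sult2b1, which sulfates cholesterol and other hydroxysteroids, had the smallest p at 3 months on probe 1. The values were -0.71, -0.08, -0.22, -0.07 and -0.06 in 3-month knockouts, against 0.20, 0.19, -0.24, 0.22 and 0.31 in 3-month controls. All controls but number 3 lay above the knockouts (-0.36 ± 0.15, adjusted p = 0.559), and probe 2 differed by 0.10 ± 0.14. On probe 1 the difference was -0.24 without knockout 1, -0.75 with liver-in-Cy5 arrays alone and 0.02 with liver-in-Cy3 arrays alone.

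The Ces genes, all on chromosome 8, had a median difference of -0.03 at 3 months and 0.18 at 5 months, with 10 of 15 genes higher in 5-month knockouts. Ces4a had the smallest p at 5 months. Its log2 ratios were 0.37, 0.40, 0.34, 0.13 and 0.33 in 5-month knockouts, against -0.05, -0.10, 0.00, -0.33 and -0.08 in 5-month controls. The groups did not overlap, and the difference of 0.43 ± 0.12 was not called (adjusted p = 0.207). With the doubtful array of control 4 turned it was 0.28. Ces2a, a lipase of neutral glycerides, differed by 0.46 at 5 months (adjusted p = 0.33). Ces1c, the carboxylesterase of mouse plasma, differed by 0.40 and 0.19 on its probes at 5 months, and by -0.25 and -0.27 at 3 months. Ces1d, a triacylglycerol hydrolase of hepatocytes, had the smallest p of the family at 3 months. Its values were 0.62, 0.18, 0.37, 0.37 and -0.38 in 3-month knockouts, against 0.91, 0.63, 0.43, 0.73 and 0.77 in 3-month controls. Only knockout 1 reached the range of the controls, and the difference was -0.46 ± 0.23 (adjusted p = 0.652), or -0.26 within the array series of 3-month knockouts 1 and 2 and controls 1 to 3.

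Fmo4 was the member with a lower level in all 5-month knockouts than in any 5-month control. Its log2 ratios were -0.94, -0.28, -0.30, -0.16 and -0.16 in 5-month knockouts, against 0.14, -0.10, 0.01, 0.34 and 0.38 in 5-month controls. Knockout 1 lay far below the others. The difference was -0.52 ± 0.14 (1.44-fold lower) and was not called (adjusted p = 0.184), and at 3 months it was -0.20 ± 0.14 (adjusted p = 0.793). Fmo5, which in humans also acts as a Baeyer-Villiger oxygenase, differed by 0.34 and 0.37 on its probes at 5 months (adjusted p = 0.512 and 0.408). Fmo1, a main hepatic form in mice, differed by 0.12 at 3 months and 0.11 at 5 months. Fmo2 had the smallest p at 3 months on probe 1 (0.40 ± 0.24, adjusted p = 0.737), while probe 2 differed by -0.09 ± 0.21. Without 3-month control 1 the difference on probe 1 was 0.61, and with liver-in-Cy3 arrays alone it was 0.23.

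Among the Aldh1 genes the median difference was 0.12 at 3 months and 0.05 at 5 months, and no probe had an unadjusted p under 0.05 at 5 months. Aldh1b1, a mitochondrial enzyme that oxidises acetaldehyde, had the smallest p at 3 months. Its values were 0.89, -0.04, 0.02, 0.04 and 0.27 in 3-month knockouts, against 1.32, 1.11, 0.49, 0.55 and 0.90 in 3-month controls. All knockouts but number 1 lay below every control, and the difference was -0.64 ± 0.24 (adjusted p = 0.458). At 5 months it was -0.11 ± 0.24. Of the retinal dehydrogenases, Aldh1a1 differed by -0.11 at 3 months and -0.23 at 5 months, Aldh1a2 by 0.12 and 0.14, and Aldh1a3 by 0.36 and 0.05, none of them called. Aldh1a7, a rodent relative of Aldh1a1, differed by -0.30 at 3 months (adjusted p = 0.541) and -0.24 at 5 months (adjusted p = 0.529). Aldh1l1, the cytosolic 10-formyltetrahydrofolate dehydrogenase, had the smallest p at 5 months (probe 1, 0.34 ± 0.18, adjusted p = 0.524). Its mitochondrial counterpart Aldh1l2 differed by 0.35 at 3 months (adjusted p = 0.595).

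The genes with the highest and lowest mean level over the 20 mice were taken from values in which arrays with liver in Cy3 were turned, and these positions changed with the arrays used. Ugt3a1 averaged 1.14 over the mice, 1.15 with liver-in-Cy5 arrays alone, 1.13 with liver-in-Cy3 arrays alone and 0.02 with no array turned. Sult1e1 averaged 0.82, with 0.05 in Cy5 alone, 1.56 in Cy3 alone and -0.77 with none turned. Aldh1a2, the lowest of its family at -0.24, was at -0.89 in Cy5 alone, 0.34 in Cy3 alone and -0.62 with none turned, so its sign turned with the orientation. The other highest means were those of Ces2e (0.61, and -0.19 with none turned), Nat8f5 (0.78, and -0.12), Aldh1b1 (0.61, and 0.16) and Fmo1 (0.20, and 0.09). The other lowest were those of Sult4a1, a sulfotransferase-like protein of brain (-0.75, and -0.10), Ugt1a5 (-0.38, and 0.06), Ces2f (-0.34, and -0.24), Fmo4 (-0.26, and -0.04) and Nat8l, the N-acetylaspartate synthase of brain (-0.20, and -0.05). Of the 6 families, 1 had the same gene highest with liver-in-Cy5 arrays alone (Ugt3a1), 1 with liver-in-Cy3 arrays alone (Aldh1b1) and 0 with no array turned, so the order of levels between members is not settled.

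**Figure D4:**
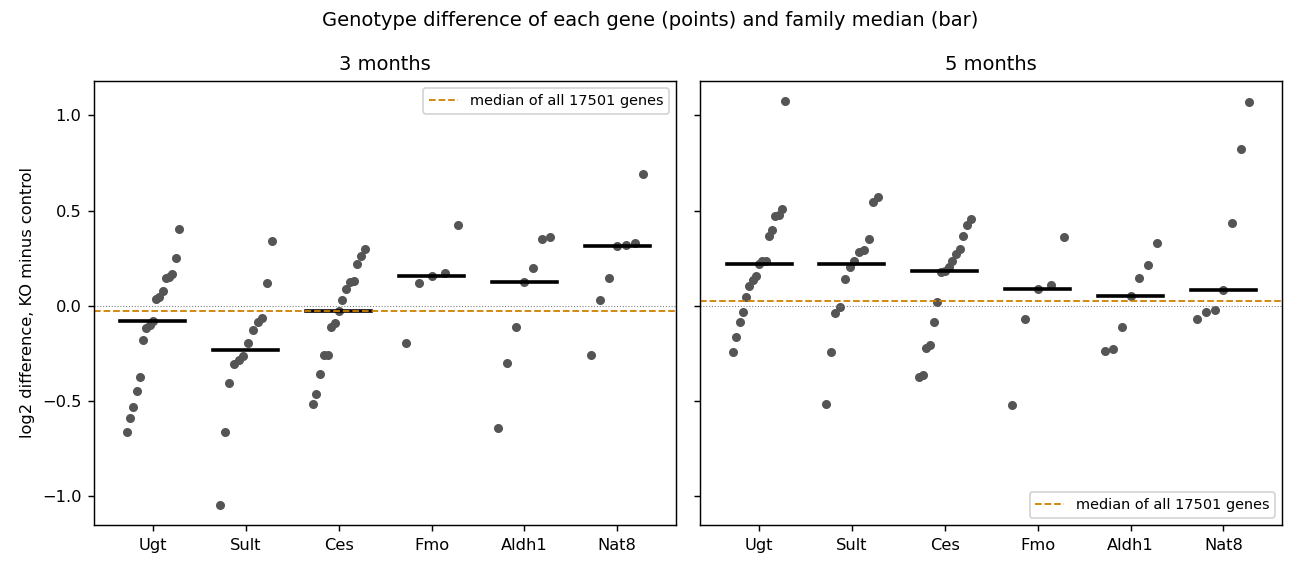
Difference of the log2 ratio, knockout minus control (y axis), for each of the 63 member genes by family (x axis) at 3 and 5 months, with the family median as a black bar and the median of all genes as a dashed line. The Sult median is -0.23 at 3 months and 0.22 at 5 months, and the Ugt median is -0.08 and 0.22.

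The genotype difference at 5 months minus that at 3 months was called for 0 of 84 member probes, as for all probes (0%), by limma. At an unadjusted p under 0.05 the count was 14 of 84 (16.7%, against 7.74% of all probes), of which 13 were positive. These were 6 Ugt2 probes, 4 Ces probes, 2 Sult probes and Nat8f1, and the negative one was a probe of Nat8f2. Livers of both times were hybridised in different array series, so time and array series cannot be told apart in this comparison. Arrays with liver in Cy5 and turned arrays with liver in Cy3 gave the same sign of the genotype difference for 69 of 84 member probes at 3 months (82.1%, against 57.2% of all probes) and for 63 of 84 at 5 months (75%, against 55.1%).

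Genes around these enzymes were described by 4 lists, in which no probe was called at either time. Of 20 genes that supply sugar and sulfate donors or reverse conjugation, 18 were measured, with medians of 0.03 at 3 months and 0.06 at 5 months. Ugdh, which makes UDP-glucuronic acid, differed by -0.38 at 3 months (adjusted p = 0.383) and by 0.35 at 5 months (adjusted p = 0.335). Of 37 partner enzymes of oxidation and conjugation, 34 were measured, with medians of -0.11 at 3 months and 0.14 at 5 months. Among their 47 probes 11 were higher and 2 lower at an unadjusted p under 0.05 at 5 months, beside 7.07% and 3.41% of all probes. The other lists had 1 higher and 0 lower of 29 probes for donor supply, 5 and 2 of 48 for receptors and factors, and 4 and 0 of 31 for retinoid handling. The partner enzymes were led by Cyb5a, the cytochrome b5 that donates electrons to P450 enzymes (0.80, adjusted p = 0.118). Nat2, an arylamine acetyltransferase, led at 3 months (-0.39, adjusted p = 0.359). Of 33 nuclear receptors and transcription factors of drug metabolism, 29 were measured, with medians of -0.03 and 0.04. Dbp, a circadian regulator of detoxifying genes, differed by -1.60 at 3 months (adjusted p = 0.207) and by -1.16 at 5 months. Nfe2l2, the NRF2 regulator of conjugation genes, had the smallest p at 5 months (0.56, adjusted p = 0.205). Of 24 other genes of retinoid handling, 22 were measured, with medians of 0.04 and 0.11, led by Dhrs9 at 3 months (-0.34, adjusted p = 0.661) and Rdh7 at 5 months (0.36, adjusted p = 0.397).

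Markers of liver cell types were set beside the members. Of 12 hepatocyte markers, 11 were measured, with a median difference of 0.00 at 3 months and 0.17 at 5 months. Their per-mouse median ran from -0.14 to 0.11 in 5-month knockouts and from -0.60 to 0.04 in 5-month controls, and Cps1, a urea cycle enzyme, differed by 0.80 at 5 months (adjusted p = 0.257). Macrophage markers (10 of 13 measured) had a median of 0.37 at 5 months, endothelial markers (10 of 10) of 0.18, cholangiocyte markers (5 of 8) of 0.18 and fetal liver and tumour markers (6 of 6) of 0.14. Stellate and fibroblast markers (10 of 10) had a median of 0.05, and a probe of Dcn, the proteoglycan decorin, was the called one (0.55, adjusted p = 0.0478). T cell markers (5 of 7) had a median of 0.01, B cell markers (5 of 6) of 0.11 and neutrophil markers (6 of 7) of -0.05. At 3 months the medians of these 8 other lists ran from -0.25 to 0.12. The part of these shifts in the members' differences was not tested.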

How the data were processed

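The deposited values are log2 ratios, 1 per probe and array, which the authors normalised to the 50th percentile of median signal in mAdb, per the series' design text. The base of the logarithm follows from the spacing of the values. The sources used here do not give background handling or spot averaging. No signal is given, so dim probes could not be filtered, and precision is limited by how many arrays there are. Probe symbols came from the platform annotation, updated through Entrez IDs for 26774 of 26926 probes with 1 symbol, while 203 probes had several symbols and 9478 none. Arrays with liver in Cy3 were turned in sign, each probe's dye effect, taken from 18 mice hybridised in both orientations, was removed, and each mouse got the mean of its arrays. A limma fit (version 3.58.1, R 4.3.3, lmFit then eBayes) had 4 group means, and a gene's value is the mean of its probes. The steps were run on simulated data with known changes. The simulation used the same direction of the ratios and a single dye effect for both times, so it could not check either of these.

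Replicates are separate mice, so p-values measure the spread between mice. Members with the smallest p per family and time, and the highest and lowest mean level per family, were named by rule, as were called probes and genes whose probes disagree. Members and lists were chosen with earlier results of these data known. Array series are runs of array numbers in the labels. Replicate numbers did not pair the mice: deviations of mice with the same number correlated at -0.07 to 0.11 (3 months) and -0.18 to 0.17 (5 months).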

Additional observations from a re-analysis of the deposited data

Results flagged for a closer look

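In 56 groups of 5 mice, those of 14 probes with a test, 6 held a mouse whose gap to its nearest neighbour passed Dixon's limit, which chance passes in about 1 of 20 groups. Sult2b1 probe 1 was -0.714 in 3-month knockout 1, where the nearest of the other knockouts was -0.215. The same probe was -0.243 in 3-month control 3, where the nearest control was 0.193. Ces4a was 0.13 in 5-month knockout 4, next to 0.334, and Fmo4 was -0.944 in 5-month knockout 1, next to -0.3. Aldh1l1 probe 1 was 0.031 in 3-month knockout 2, next to 0.441. Ugt2b1 was -0.285 in 3-month control 5, next to 0.314.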

How the results depend on the processing

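The count of called members stayed at 0 at 3 months and for the difference between times under every alternative run. At 5 months it was 0 under median centring, without the dye effect, with either orientation alone, with the mice of both orientations alone, with array series as a covariate or a random block, within the array series of 5-month knockouts 1 and 2 and all 5-month controls, with mice of 5 months alone, with limma's trend and robust settings, under the methods' t-test after Benjamini-Hochberg adjustment, with the replicate block, with no array turned and with the liver-in-Cy5 array of control 4 turned. It was 5 under quantile normalisation (Nat8f5, Ugt2b1, Ugt2b35, Ces4a and a probe of Ugt1a7c), and 0 to 1 with single mice left out. Turning no array, turning that array of control 4, and adding the probes with several Ugt symbols (count 1) were chosen after seeing the data. At the study's unadjusted threshold the methods' t-test passed 0 members at 3 months and 1 at 5 months. The replicate numbers do not pair the mice, and under the replicate block Nat8f5 kept its difference of 1.07 (adjusted p = 0.212). The median over member genes at 5 months was 0.26 with liver-in-Cy3 arrays alone, 0.11 with liver-in-Cy5 arrays alone and -0.0848 with no array turned. It was 0.13 to 0.19 with single mice left out. With no array turned the differences of Ugt2b37 (0.13) and Ces1d (0.0037) at 3 months and of Sult2a8 (-0.13), Aldh1l1 probe 1 (-0.0187), Nat8f5 (-0.34), Ugt2b1 (-0.0226) and Ugt2b35 (-0.24) at 5 months changed sign, as did Sult2b1 probe 1 at 3 months with liver-in-Cy3 arrays alone (0.0228). Of 411 values of 15 named differences, 376 kept direction and side of the threshold, 22 lost the call, 5 gained it and 8 changed sign. Of 120 values of 12 named mean levels, 107 moved by less than the spread between mice and 13 by more.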
